A study of Schizosaccharomyces pombe with 4 samples.

Results

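The genes described here encode the building blocks of the fission yeast cytoskeleton. They are 10 of the 12684 features counted in each library. They were chosen by name for their function and not by a measured value, although earlier results of these data were known. The 10 are actin (*act1*), both alpha tubulins (*nda2* and *atb2*), beta tubulin (*nda3*), tropomyosin (*cdc8*), cofilin (*adf1*), profilin (*cdc3*), fimbrin (*fim1*), the heavy chain of the ring myosin II (*myo2*) and the formin of the contractile ring (*cdc12*). Their levels were measured in total, ribo-depleted RNA and in poly(A)+ RNA of vegetative *Schizosaccharomyces pombe*, with 2 libraries of each kind. All 4 libraries come from haploid h- cells with the genotype leu1-32, pat1-L95G::kanR, which the labels call wt, so that both fractions carry the same altered allele of the Pat1 kinase that restrains meiosis. The cells were grown in minimal medium (EMM) at 30 °C and harvested at an OD of 0.8 to 1.0, and the labels name no treatment. The total RNA libraries were made with a strand-specific kit and read in pairs of 51 and 35 nt, whereas the poly(A)+ libraries were enriched on oligo(dT) beads, made with another kit and read in pairs of 150 nt. Fraction, kit, read length and instrument therefore change together and cannot be told apart.

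Actin monomers assemble into 3 structures in these cells: patches at sites of endocytosis, cables along the cell axis, and the contractile ring that divides the cell. Profilin delivers monomers to formins, tropomyosin coats the filaments that formins make, cofilin severs filaments, fimbrin crosslinks them in patches, and myosin II pulls on them in the ring. Microtubules are polymers of a dimer of 1 alpha and 1 beta tubulin. In fission yeast *nda2* is the essential alpha tubulin gene, *atb2* encodes a second alpha tubulin that cells can do without, and *nda3* is the only beta tubulin gene. *act1* is also the usual reference transcript in RT-PCR of fission yeast RNA, and it served as such for vegetative cells in the study. The RT-qPCR of its meiotic time courses was instead normalized to total RNA concentration.

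The libraries held 25530272 to 30650533 counts. Of 11234 features that passed the filter on low counts, 49.7% were higher and 35.5% lower in poly(A)+ RNA (edgeR's quasi-likelihood test, adjusted p under 0.05). The 5008 protein-coding genes among them had a median log2 fold change of -0.93, poly(A)+ over total RNA, when the libraries were scaled over all features with TMM factors (trimmed mean of M-values), and of 0.040 when the factors came from protein-coding genes alone. A value near -0.93 on the first scale is thus that of the typical messenger RNA, and each of the 10 genes is given on both scales. The 4 markers of h- cells, the labelled mating type, summed to 3730 to 4406 counts per kilobase and per 1000000 counts in the 4 libraries. The 2 markers of h+ cells summed to 5.35 to 24.5, with 6 to 13 counts of *map2*. Most of that sum was *map3*, with 254 and 259 counts in total RNA versus 765 and 1284 in poly(A)+ RNA. *map3* is overlapped by a feature on the opposite strand. The 7 meiotic markers are all overlapped on the opposite strand. They summed to 5.07 to 5.11 in total RNA and to 54.0 to 72.3 in poly(A)+ RNA, where *spo6* and *mde2* made up most of the sum. The part of this sum in the results below was not tested.

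The 10 genes differ in length and structure, which matters for any comparison of levels between them. They span from 570 nt in *cdc3* to 5857 nt in *cdc12* in the deposited tables, and all 10 have the same ends in the RefSeq annotation of assembly ASM294v3. Of the 10, 6 carry introns, 13 in all and 36 to 163 nt long, every one of which runs from GT to AG. *nda3* has 5, *adf1*, *cdc3* and *fim1* have 2 each, and *nda2* and *cdc8* have 1, whereas *act1*, *atb2*, *myo2* and *cdc12* have none. Of the 5113 protein-coding genes, 48.3% have an intron. The introns are shown because the deposited gene length includes them, so that a spliced transcript is divided by too large a length. The following stretches run from the start codon to the end of the first intron, 5′ to 3′ on the coding strand, with the intron in capitals, at chrII:3965877-3965924 (minus strand), chrI:4826024-4826077 (minus strand) and chrI:2579417-2579478 (minus strand), in that order.
nda3: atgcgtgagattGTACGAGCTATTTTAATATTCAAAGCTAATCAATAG
adf1: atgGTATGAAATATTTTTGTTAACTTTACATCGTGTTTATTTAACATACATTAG
cdc3: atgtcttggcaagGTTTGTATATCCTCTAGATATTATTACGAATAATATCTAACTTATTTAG
In *adf1* the intron follows the start codon directly, and in *nda3* it comes after 12 coding bases. Introns make up 214 of the 870 nt of *adf1* and 302 of the 1882 nt of *nda3*.

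The alpha tubulin genes are paralogs, and their coding sequences were identical at 76.0% of 1350 aligned positions. Their longest identical stretch was 29 nt. It is shown in capitals with 15 flanking bases on each side, at chrII:4270275-4270333 (plus strand) for *nda2* and chrII:260834-260892 (minus strand) for *atb2*, because it bears on whether a read can be told to come from one gene or the other.
nda2: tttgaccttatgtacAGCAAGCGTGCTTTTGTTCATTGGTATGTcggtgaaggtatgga
atb2: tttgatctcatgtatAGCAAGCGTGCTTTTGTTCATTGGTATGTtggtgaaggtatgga
The stretch is shorter than 35 nt, the length of the shorter read of a total RNA pair before trimming. No window of 35, 51 or 150 nt of any of the 10 genes occurred elsewhere in the genome. Reads of these full lengths can thus be assigned to *nda2* or *atb2*, which says nothing of the strand they come from. The methods state that trimmed total RNA reads were kept if longer than 10 nt, and such shorter reads were not examined here.

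In total RNA actin stood far above every other gene of the group. Each library is of RNA from many cells, so that a level cannot be split into the share of cells that hold a transcript and the RNA per cell. *act1* reached 3556 and 3611 RPKM (counts divided by gene length in kilobases and by the TMM-scaled library size) and ranked 18 of 5113 protein-coding genes by counts per nucleotide in both libraries. Profilin and cofilin came next with 653 ± 7.76 RPKM for *cdc3* and 651 ± 21.9 RPKM for *adf1* (SD, n = 2), a difference smaller than the spread between the replicates. They were followed in order by *nda3*, *nda2*, *fim1*, *atb2* and *cdc8*, from 399.5 ± 7.61 down to 163 ± 6.77 RPKM (SD, n = 2), and each of these steps was larger than the spread of its log2 ratio between the 2 libraries. *myo2* and *cdc12* lay lowest, with 31.2 ± 1.59 and 18.1 ± 2.12 RPKM (SD, n = 2). Division by the spliced length instead of the gene length put *adf1* above *cdc3*, at 864 against 801 RPKM, by more than that spread, and left the other positions in place.

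**Figure D1:**
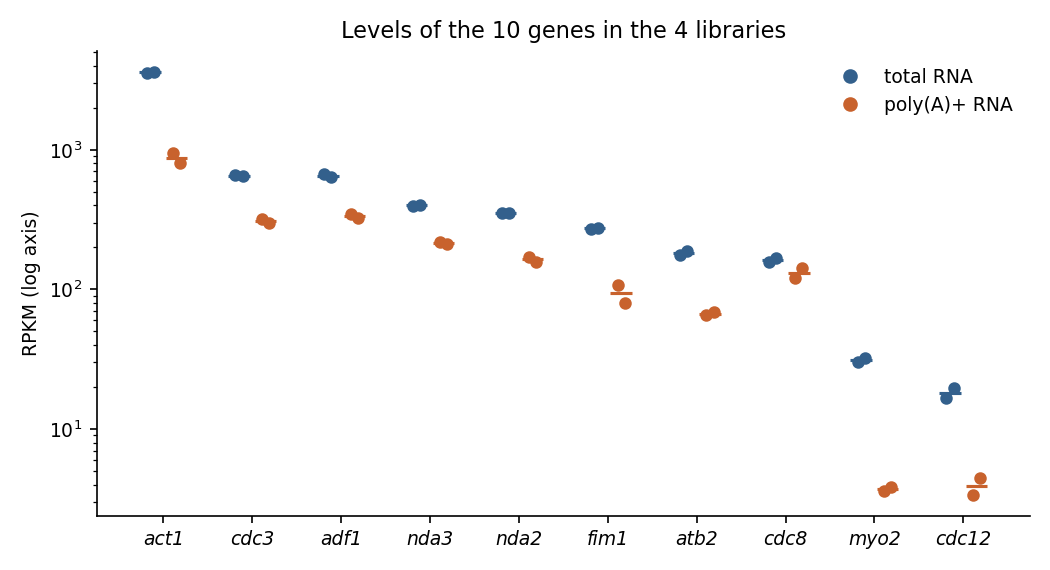
RPKM (log axis) of the 10 genes in each library, ordered by their mean in total RNA; each point is 1 library and each short line the mean of the 2 libraries of a fraction. The poly(A)+ points lie below the total RNA points for all 10 genes, close to them for *cdc8* and far from them for *act1*, *myo2* and *cdc12*.

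The order of the means in poly(A)+ RNA differed in 3 places, not all of them beyond the replicate spread. *adf1* stood above *cdc3* there, with 335 ± 14.9 against 308 ± 14.6 RPKM (SD, n = 2). Total RNA did not separate these genes by gene length. By spliced length *adf1* was the higher in both fractions, at 445 against 378 RPKM in poly(A)+ RNA. *cdc8* moved from below *fim1* and *atb2* to above both, with 132 ± 15.7 RPKM against 94.4 ± 19.8 and 66.9 ± 2.34 RPKM. The step from *cdc8* to *fim1* was hardly larger than the replicate spread, at 0.49 on the log2 scale against an SD of 0.48. *myo2* and *cdc12* could not be ordered, since 3.74 ± 0.166 and 3.93 ± 0.753 RPKM (SD, n = 2) differ by less than their spread.

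No feature lies on the opposite strand of the actin gene. *act1* (SPBC32H8.12c), on chromosome II at 1475485 to 1477333 (minus strand), reached 3556 and 3611 RPKM in total RNA versus 948 and 808 RPKM in poly(A)+ RNA. Both poly(A)+ libraries were far below both total RNA libraries, and the fractions did not overlap. The log2 fold change, poly(A)+ over total RNA, was -2.03 ± 0.11 (standard error, adjusted p = 1.46e-05), a level 4.08-fold lower. Against the median protein-coding gene *act1* was 2.14-fold lower, and 8.63% of protein-coding genes had a lower log2 fold change. With factors from protein-coding genes the log2 fold change was -1.06 ± 0.11 (adjusted p = 0.000275), so that the call did not depend on the scaling.

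As a share of its library, which amounts to scaling by the library total, actin was also lower in poly(A)+ RNA. *act1* took 0.509% of all counts (Wilson 95% interval 0.507 to 0.512%) in total RNA replicate 1 and 0.513% (0.511 to 0.516%) in replicate 2. In poly(A)+ RNA it took 0.215% (0.214 to 0.217%) and 0.204% (0.203 to 0.206%). These intervals cover counting error only. The rank of *act1* and its share among the 10 genes use no scaling between libraries. Its rank among protein-coding genes went from 18 in both total RNA libraries to 120 and 125 in poly(A)+ RNA. Of the counts of the 10 genes together, *act1* held 63.5 and 63.6% in total RNA versus 49.8 and 47.4% in poly(A)+ RNA.

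The alpha tubulins were measured at unequal levels, with *nda2* the higher in all 4 libraries. *nda2* (SPBC16A3.15c), on chromosome II at 4268912 to 4270761 (plus strand), had 355 and 350 RPKM in total RNA versus 171 and 157 RPKM in poly(A)+ RNA. *atb2* (SPBC800.05c), on chromosome II at 260309 to 262116 (minus strand), had 177 and 189 RPKM in total RNA versus 65.2 and 68.5 RPKM in poly(A)+ RNA. For both genes the poly(A)+ values lay below the total RNA values without overlap, and both genes, unlike *nda3* and *act1*, are overlapped by a lncRNA on the opposite strand. *nda2* exceeded *atb2* 2.01- and 1.85-fold per nucleotide in total RNA versus 2.63- and 2.29-fold in poly(A)+ RNA. The fractions did not overlap in this ratio either, and the mean log2 ratio was 0.35 higher in poly(A)+ RNA. An exact permutation test (two-sided, 2 libraries against 2) gave p = 0.333, the smallest it can give, so that this test cannot pass a threshold of 0.05 with 2 libraries in each fraction. Adjusted over the 8 ratios compared, this p became 0.381.

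Beta tubulin was close to the median messenger RNA. *nda3* (SPBC26H8.07c), on chromosome II at 3964092 to 3965973 (minus strand), had 394 and 405 RPKM in total RNA versus 219 and 211 RPKM in poly(A)+ RNA. The fractions were again apart, at -0.90 ± 0.098 on the log2 scale (standard error, adjusted p = 0.000238), which is 0.036 above the median protein-coding gene. The corresponding values were -1.10 ± 0.11 for *nda2* (adjusted p = 0.000134) and -1.45 ± 0.11 for *atb2* (adjusted p = 5.81e-05). With factors from protein-coding genes only *atb2* among the tubulins remained lower, at -0.48 ± 0.11 (adjusted p = 0.00907), whereas *nda2* had -0.13 (adjusted p = 0.314) and *nda3* had 0.076 (adjusted p = 0.516).

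Both alpha tubulins together were set against the only beta tubulin, since the protein dimer holds them in equal number. The ratios are of RNA, and protein was not measured in these libraries. The sum of *nda2* and *atb2* per nucleotide was 1.35- and 1.33-fold that of *nda3* in total RNA and 1.08- and 1.07-fold in poly(A)+ RNA. The replicates agree closely, and the mean log2 ratio, poly(A)+ minus total RNA, differed by -0.32, with the fractions apart (exact permutation p = 0.333, adjusted p = 0.381). The position relative to 1 depended on the length used. Division by spliced length removes the 5 introns of *nda3*. The ratios were then 1.17 and 1.155 in total RNA versus 0.942 and 0.929 in poly(A)+ RNA. Alpha tubulin RNA was thus above beta tubulin RNA in total RNA and below it in poly(A)+ RNA.

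**Figure D2:**
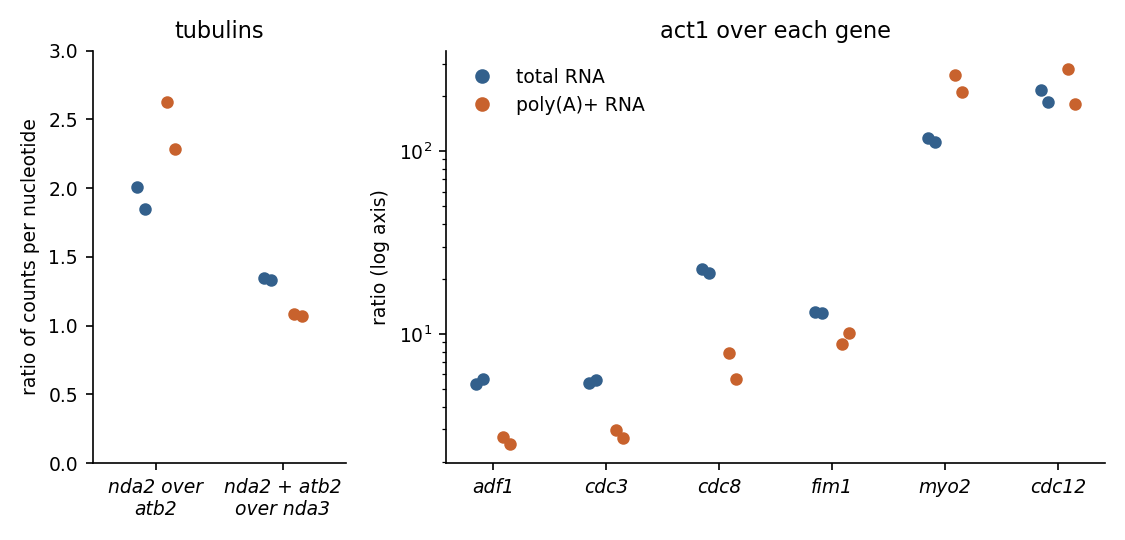
Ratios of counts per nucleotide of gene between members in each library, for the tubulins (left, linear axis from 0) and for *act1* over each actin gene partner (right, log axis); each point is 1 library. The fractions are apart in every ratio except *act1* over *cdc12*, and *act1* over *myo2* is the 1 actin ratio that is higher in both poly(A)+ libraries, at 262 and 209 against 118 and 112.

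Among the proteins that bind monomers or sever filaments, cofilin and profilin kept close to the typical messenger RNA. *adf1* (SPAC20G4.06c), on chromosome I at 4825257 to 4826126 (minus strand), had 667 and 636 RPKM in total RNA versus 346 and 325 RPKM in poly(A)+ RNA. *cdc3* (SPAC4A8.15c), on chromosome I at 2578956 to 2579525 (minus strand), had 659 and 648 RPKM in total RNA versus 319 and 298 RPKM in poly(A)+ RNA. The fractions did not overlap for either gene, and neither has a feature on its opposite strand. The log2 fold changes were -0.96 ± 0.10 for *adf1* (adjusted p = 0.000237) and -1.08 ± 0.11 for *cdc3* (adjusted p = 0.000164). With factors from protein-coding genes neither passed the test, at 0.014 (adjusted p = 0.913) and -0.11 (adjusted p = 0.395).

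Actin accordingly outnumbered these partners less in poly(A)+ RNA. *act1* exceeded *adf1* 5.33- and 5.68-fold per nucleotide in total RNA versus 2.74- and 2.49-fold in poly(A)+ RNA. For *act1* over *cdc3* the ratios were 5.40 and 5.57 in total RNA versus 2.98 and 2.71 in poly(A)+ RNA. In both cases the total RNA libraries were higher without overlap, and poly(A)+ minus total RNA was -1.08 and -0.95 on the log2 scale. Spliced lengths lowered all 4 values of *act1* over *adf1*, to 4.02 and 4.28 in total RNA versus 2.07 and 1.87 in poly(A)+ RNA, and left the difference between fractions as it was.

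Tropomyosin was the only gene of the group that did not pass the test. *cdc8* (SPAC27F1.02c), on chromosome I at 4319247 to 4320235 (minus strand), had 158 and 167 RPKM in total RNA versus 120 and 143 RPKM in poly(A)+ RNA. The poly(A)+ libraries were lower, but by little, and they differed from each other by more than the total RNA libraries did. The log2 fold change was -0.31 ± 0.13 (adjusted p = 0.0709), which is 1.54-fold above the median protein-coding gene, and 79.0% of protein-coding genes had a lower log2 fold change. Its call turned with the scaling, since factors from protein-coding genes gave 0.67 ± 0.13 (adjusted p = 0.00456). Without poly(A)+ replicate 2 it was lower, at -0.45 (adjusted p = 0.000613), and DESeq2 also called it lower, at -0.75 (adjusted p = 0.000129). *act1* over *cdc8* went from 22.5 and 21.6 in total RNA to 7.87 and 5.66 in poly(A)+ RNA, the largest difference among the 8 ratios, at -1.72 on the log2 scale.

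Fimbrin lay between these genes and actin. *fim1* (SPBC1778.06c), on chromosome II at 3106242 to 3108808 (minus strand), had 272 and 278 RPKM in total RNA versus 108 and 80.4 RPKM in poly(A)+ RNA. The fractions were apart, although its poly(A)+ replicates differed more, in proportion to their mean, than those of any other member. The log2 fold change was -1.54 ± 0.16 (adjusted p = 0.000202), and -0.57 ± 0.16 with factors from protein-coding genes (adjusted p = 0.0216). *act1* over *fim1* was 13.1 and 13.0 in total RNA versus 8.75 and 10.1 in poly(A)+ RNA.

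The genes of the ring motor and the ring formin were the lowest of the group in both fractions and, with *act1*, had its lowest log2 fold changes. *myo2* (SPCC645.05c), on chromosome III at 1233231 to 1238236 (minus strand), had 30.1 and 32.3 RPKM in total RNA versus 3.63 and 3.86 RPKM in poly(A)+ RNA, which rest on 3575 and 3618 counts and on 569 and 802 counts. The fractions were far apart, and the log2 fold change of -3.06 ± 0.13 (adjusted p = 7.39e-06) made the poly(A)+ level 8.34-fold lower. Only 1.12% of protein-coding genes had a lower log2 fold change. By counts per nucleotide *myo2* exceeded 47.5 and 48.6% of protein-coding genes in total RNA versus 9.11 and 8.117% in poly(A)+ RNA.

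*cdc12* (SPAC1F5.04c), on chromosome I at 283344 to 289200 (plus strand), had 16.6 and 19.6 RPKM in total RNA versus 3.40 and 4.46 RPKM in poly(A)+ RNA. The fractions did not overlap, and the spread within each was the widest in proportion to the mean of any member but *fim1* in poly(A)+ RNA. The log2 fold change was -2.20 ± 0.19 (adjusted p = 8.17e-05), a level 4.59-fold lower. Both ring genes remained lower with factors from protein-coding genes, at -2.09 for *myo2* (adjusted p = 2.64e-05) and -1.23 for *cdc12* (adjusted p = 0.00126). *act1* over *cdc12* was the 1 ratio whose fractions overlapped, with 215 and 185 in total RNA versus 279 and 181 in poly(A)+ RNA (exact permutation p = 1).

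Of the 10 genes, 9 were lower in poly(A)+ RNA and none was higher, where 72.4% of protein-coding genes were lower and 7.89% higher. The count of members is thus not far from the background. With factors from protein-coding genes, 5 were lower (*act1*, *atb2*, *fim1*, *cdc12* and *myo2*), *cdc8* was higher and 4 did not pass the test, where 24.4% of protein-coding genes were lower and 26.3% higher. The median of the members was -1.28 against -0.93 for protein-coding genes on the first scale, and -0.31 against 0.040 on the second. The RPKM of the fractions did not overlap for any member, as for 91.3% of protein-coding genes.

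**Figure D3:**
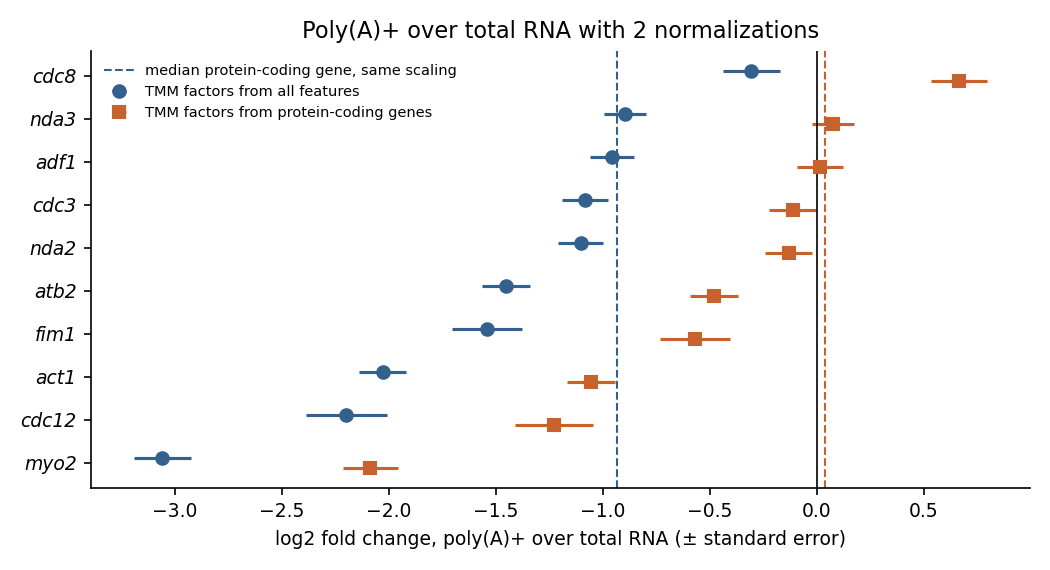
Log2 fold change, poly(A)+ over total RNA, with its standard error for each of the 10 genes, with TMM factors from all features (circles) and from protein-coding genes (squares); dashed lines mark the median protein-coding gene on each scale. The order of the genes is the same on both scales, from *myo2* at -3.06 and -2.09 to *cdc8* at -0.31 and 0.67.

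The log2 fold changes of the group went with gene length, as did those of all protein-coding genes. Over 5008 protein-coding genes Spearman's rho between gene span and log2 fold change was -0.40 and Pearson's r with the log2 span was -0.31. Over the 10 members rho was -0.66 and r was -0.77. With the log2 level in total RNA, which is itself the denominator of the fold change, rho was -0.38 and r -0.45 over 5007 protein-coding genes, and 0.33 and 0.41 over the members. These are descriptions across genes of the same 4 libraries, and genes are not independent replicates. The median log2 fold change was -0.52 in 783 genes under 1000 nt, -0.85 in 2117 genes of 1000 to 2000 nt, -1.23 in 1779 genes of 2000 to 4000 nt and -2.13 in 329 longer genes.

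Read against genes of like length, the members separate differently. *cdc12* was at the median of its class, with 48.0% of genes over 4000 nt lower than it, and *myo2* was lower than most of them, with 12.5% below it. *act1*, *nda2*, *atb2* and *nda3* are of nearly equal length, from 1808 to 1882 nt, and yet ran from -2.03 to -0.90. In their class of 2117 genes, 2.13% had a lower log2 fold change than *act1*, 10.7% than *atb2*, 30.4% than *nda2* and 46.5% than *nda3*. Among the genes under 1000 nt, 13.7% were lower than *cdc3*, 20.2% than *adf1* and 64.8% than *cdc8*. The part of length, and of the kits and read lengths that differ between the fractions, was not tested.

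**Figure D4:**
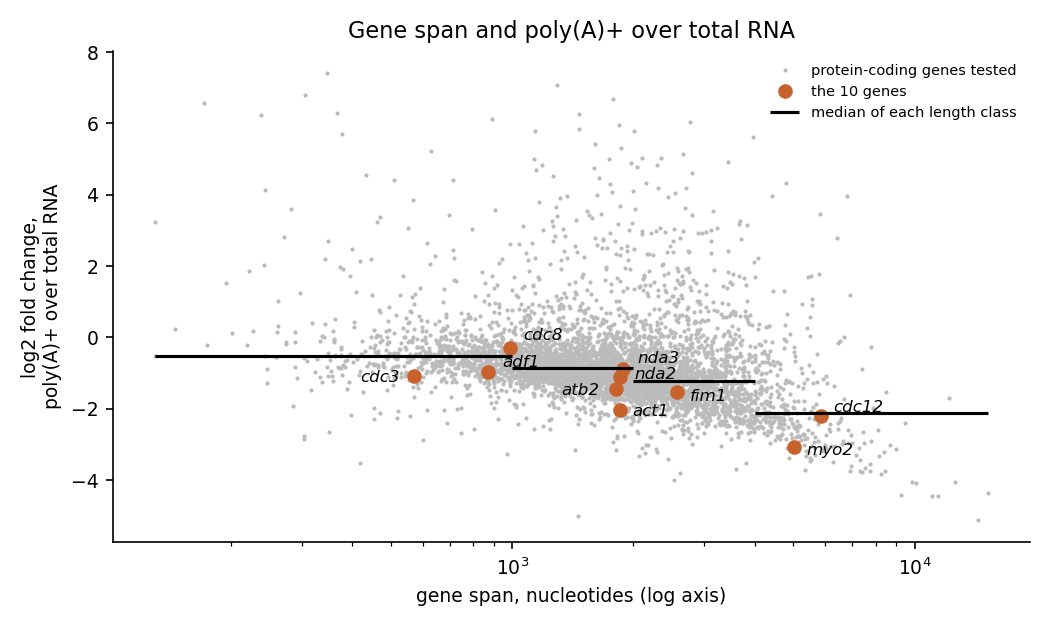
Log2 fold change, poly(A)+ over total RNA, against gene span in nucleotides (log axis) for 5008 protein-coding genes (grey) and the 10 genes (orange, named); horizontal lines mark the median of each of 4 length classes. *act1* at -2.03 lies below the tubulin genes of nearly the same span, and *cdc12* lies at the median of the genes over 4000 nt.

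Features on the opposite strand bear on 5 of the 10 genes. *nda2*, *atb2*, *cdc8*, *myo2* and *cdc12* are overlapped by 11 such features, 10 of them lncRNAs and 1 the 3′ neighbour *nse3* of *myo2*, which encodes a subunit of the Smc5/6 complex, whereas *act1*, *nda3*, *adf1*, *cdc3* and *fim1* have none. In total RNA the 10 lncRNAs were low, with a median of 1.18 and 1.26% of the member's counts per nucleotide. In poly(A)+ RNA the median was 90.1 and 81.0%. The clearest case is SPNCRNA.6519, which covers 1828 nt of *nda2* and had 125 and 110 counts in total RNA but 9759 and 12054 in poly(A)+ RNA, next to 9939 and 12036 for *nda2* itself.

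In the other pairs too the lncRNA was low in total RNA and closer to the member or above it in poly(A)+ RNA, from 13.6 to 718% of its counts per nucleotide over the pairs and libraries. SPNCRNA.4630, which lies wholly inside *atb2*, had 3 and 4 counts in total RNA versus 1078 and 1475 in poly(A)+ RNA. SPNCRNA.7278, which overlaps *myo2* with 1429 of its 1483 nt, had 20 and 24 counts in total RNA versus 89 and 108 in poly(A)+ RNA. Over *cdc12*, SPNCRNA.2112 had 42 and 32 counts in total RNA versus 1147 and 1530 in poly(A)+ RNA, and SPNCRNA.2114 had 157 and 139 against 3321 and 4478, although both also reach beyond the gene. Which strand these poly(A)+ reads come from cannot be told apart in the counts, and the part of opposite-strand reads in the poly(A)+ values of the 5 genes was not tested. The members with and without such a feature had median log2 fold changes of -1.45 and -1.08, and the protein-coding genes with and without one had -0.95 and -0.82.

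The hexamer AATAAA, the canonical poly(A) signal of animal genes, was searched on the coding strand in the last 60 nt of each annotated transcript, because the fractions differ by selection on the poly(A) tail. It was present in 3 of the 10 genes and in 18.8% of protein-coding genes. The stretches of 30 nt around it are given 5′ to 3′ with the hexamer in capitals, at chrI:4319262-4319291 (minus strand), chrII:4270710-4270739 (plus strand) and chrII:3106253-3106282 (minus strand).
cdc8: tgccaactctttAATAAAgacttctatatg
nda2: tctatctttgcaAATAAAccaccagtaaaa
fim1: attttttactttAATAAAatattcggaatc
These 3 genes had log2 fold changes of -0.31, -1.10 and -1.54, and of the 7 genes without the match *nda3*, *adf1*, *cdc3* and *atb2* lay between the first and the last of these and *act1*, *cdc12* and *myo2* below them. A match is a description of the letters and not of a site in use.

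Other genes of the cytoskeleton were counted in 6 lists with 77 genes, all of which passed the filter. In poly(A)+ RNA 69 of them were lower, 4 higher and 4 past no threshold, where 72.4% of protein-coding genes were lower. Their median was -1.29, close to that of the 10 genes. Scaling on protein-coding genes left 30 lower and 9 higher, and 38 did not pass, where 24.4% of protein-coding genes were lower and 26.3% higher. All but 1 of the 77 are overlapped by a feature on the opposite strand, so that the limit above applies to them too.

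Read against the 72.4% of protein-coding genes that were lower, the lists hold the following counts. Of 19 genes of the Arp2/3 complex, which nucleates branched filaments, and of actin patches, 17 were lower and 2 higher (*wsp1* and *vrp1*), with a median of -1.26. The 7 Arp2/3 subunits had log2 fold changes from -1.28 to -0.43 and were all called lower, but scaled on protein-coding genes none was lower and *arc5* was higher, at 0.55 (adjusted p = 0.00833). The extremes of this list were *crn1*, which encodes coronin, at -3.33 (adjusted p = 1.14e-05), and *wsp1*, the activator of Arp2/3, at 0.80 (adjusted p = 0.00536), and both kept their call with protein-coding factors, at -2.36 and 1.78. All 9 genes of formins, myosin chains and cables were lower, with the lowest median of the lists, -1.72, and also the largest median span, 4676 nt. *myo52*, a myosin V heavy chain, was lowest at -2.80, and at -1.83 with protein-coding factors. *cdc4*, the essential light chain that binds Myo2, was highest at -0.33 (adjusted p = 0.0418), and its call turned to higher with protein-coding factors, at 0.65 (adjusted p = 0.00317).

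For the ring motor the chains thus differed in level. In total RNA *myo2* had 31.2 RPKM on average, against 96.6 RPKM for *cdc4* and 59.4 RPKM for *rlc1*, the regulatory light chain. In poly(A)+ RNA the means were 3.74, 77.1 and 28.7 RPKM. The light chain genes are shorter than *myo2*, with 1870 and 1236 nt against 5006 nt, and each is overlapped on the opposite strand. *rlc1*, like *arc5*, *vrp1*, *cyk3*, *spn2* and *alp7* in these lists, was named after its values were seen.

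Of 12 genes for cytokinesis nodes, ring assembly and septins, 9 were lower, 1 was higher and 2 did not pass (*cyk3* and *spn2*), with a median of -0.87. *rng2*, the IQGAP of the ring, was lowest at -2.44 (adjusted p = 1.27e-05), and *fic1*, which encodes a ring protein bound by Cdc15, was highest at 1.16 (adjusted p = 0.000484), with the same calls at -1.47 and 2.13 under protein-coding factors. The *fic1* value was 35.1 RPKM in poly(A)+ RNA against 15.7 RPKM in total RNA. Scaled on protein-coding genes, 6 genes of the patch list, 5 of the formin and myosin list and 3 of the cytokinesis list were lower, and 3, 1 and 3 were higher, where 24.4% of protein-coding genes were lower and 26.3% higher.

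The lists of tubulin partners are read against the same 72.4%. All 12 genes for the CCT chaperonin, which folds actin and tubulin, and for the tubulin folding cofactors were lower, with a median of -1.36. The 8 CCT subunits lay within a narrow range, from -1.52 to -1.22, below *nda3* and *nda2* and on either side of *atb2*, and 6 of them were lower with protein-coding factors. *alp1*, the cofactor D gene, was lowest in this list at -2.34 and *alp31*, the cofactor A gene, highest at -0.52, and with protein-coding factors these were -1.37 and 0.45 (adjusted p = 0.000218 and 0.0552). In the gamma tubulin list, which holds the genes that nucleate microtubules, 7 of 8 were lower and 1 did not pass, with *alp16*, a subunit of the gamma tubulin complex, at -1.83 and *mto2*, which recruits that complex, at -0.24 (adjusted p = 0.110), and protein-coding factors gave -0.86, called lower, and 0.73, called higher. Of 17 genes for microtubule associated proteins and kinesins, 15 were lower, *pkl1* was higher and *alp7* did not pass. Both extremes of this list are kinesin genes of the spindle with opposed motors, *cut7* at -2.47 (adjusted p = 0.000188) and *pkl1* at 0.73 (adjusted p = 0.0366), with the same calls at -1.50 and 1.70 under protein-coding factors. Scaled on protein-coding genes, 7 genes of the folding list, 2 of the gamma tubulin list and 7 of the last list were lower, and 0, 1 and 1 were higher, to be read against the same 24.4% and 26.3%.

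**Figure D5:**
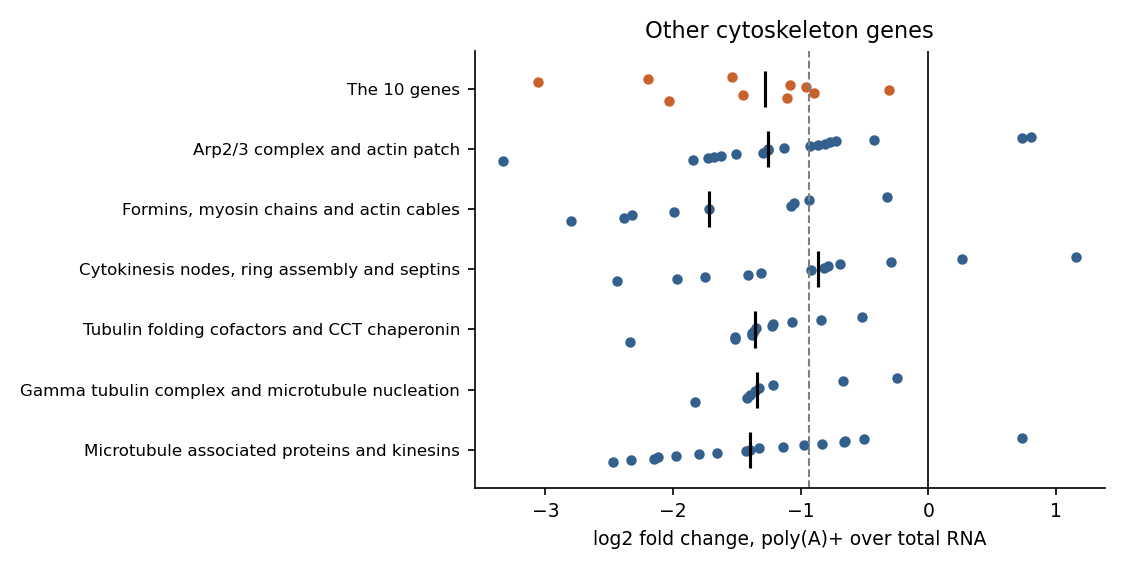
Log2 fold change, poly(A)+ over total RNA, of the 10 genes (orange) and of 77 other cytoskeleton genes in 6 lists (blue); each point is 1 gene, short vertical lines mark the median of each list, the dashed line the median protein-coding gene at -0.93 and the solid line 0. Most points lie below 0, and the list of formins and myosin chains has the lowest median, -1.72.

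The protein-coding genes nearest in pattern were found for *act1*, *nda3* and *cdc12* as the smallest Euclidean distance over the 4 libraries in log2 normalised counts per kilobase. *act1* had no near neighbour. The closest was *pho1*, an acid phosphatase gene, at a distance of 0.65, followed by *sks2*, an Hsp70 gene, at 0.78 and *rps401*, a ribosomal protein gene, at 0.79, and all 3 were less reduced in poly(A)+ RNA than *act1*, with log2 fold changes from -1.71 to -1.25. *nda3* was close to *fkh1*, a prolyl isomerase gene (0.11), *eft202*, an elongation factor gene (0.14) and SPAP8A3.07c (0.16). *cdc12* was close to *dna2* (0.13), and next to *tea2* (0.19), a kinesin gene, and *for3* (0.23), the formin of actin cables, both of which are also in the lists. The log2 fold change was -2.27 for *dna2* and -2.15 for *tea2*, on either side of -2.20 for *cdc12*.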

How the data were processed

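The authors aligned trimmed read pairs with STAR 2.6.1d and counted them on genes with featureCounts (Subread 2.0.6), as the submitters' processing notes and the methods state. Trimming was by Cutadapt 1.15 for total RNA and fastp 0.23.1 for poly(A)+ RNA. The deposited values are raw counts of 12684 features without normalization. The header has 9 cells over 8 fields, so fields were taken by position. Whether strand was used in counting is not given in the sources used here. The labels call the 2 samples of a fraction biological replicates.

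In R 4.3.3 the counts were tested between fractions by edgeR 4.0.16 (TMM, filterByExpr, glmQLFit, glmQLFTest, Benjamini-Hochberg over 11234 features, adjusted p under 0.05). A standard error is the log2 fold change divided by the square root of F. RPKM divide counts by deposited gene length and the TMM-scaled total. Ratios were tested with scipy 1.17.1. The fit was tested on simulated data in which few genes changed, unlike the libraries here, in which most features were called. Sequences are from RefSeq, assembly ASM294v3, to which 12602 features matched. The members and lists were chosen with earlier results of these data known. Text names every member, the highest and lowest gene of each list, the 3 nearest genes in pattern of *act1*, *nda3* and *cdc12*, and features opposite a member. Alternatives were DESeq2 1.42.0 and its size factors, library totals, factors from protein-coding genes, these genes alone, a replicate block, other filters, a log2 fold change of 1, spliced or no length, a pseudocount of 1 and each library left out.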

Additional observations from a re-analysis of the deposited data

How the results depend on the processing

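*act1*, *atb2*, *myo2*, *cdc12* and *fim1* were called lower under all 12 alternatives of scaling, test, filter, block and library. The calls of the other 5 changed with the scaling. With factors from protein-coding genes, or these genes fitted alone, *nda2* was -0.13 in both and *cdc3* -0.11 in both, past no threshold, and the sign turned for *nda3* (0.076 in both), *adf1* (0.014 in both) and *cdc8* (0.67 in both, called higher). With library totals *nda3* was -0.15 and *adf1* -0.21, past no threshold, and *cdc8* was 0.45, called higher. With DESeq2's size factors and with DESeq2 *cdc8* was -0.80 and -0.75, called lower. Leaving out 1 library gave *cdc8* from -0.45 to -0.11, and *adf1* relative to the median protein-coding gene from -0.071 to 0.046, a change of sign (0.018 without total RNA replicate 1), and the cause was not tested. Members called lower were 5 with either protein-coding setting, and 1 was higher there and with library totals. The 77 list genes had 41, 30 and 31 lower and 7, 9 and 9 higher with totals, protein-coding factors and protein-coding genes alone. In these settings 33.5, 24.4 and 23.7% of protein-coding genes were lower, and 912 of 5008, 1319 of 5008 and 1255 of 5011 were higher. The lists had 1 gene higher with DESeq2's size factors or with DESeq2, where 258 of 5008 and 257 of 5102 protein-coding genes were higher. Over all features, 1906 were lower with totals, 1431 with protein-coding factors and 2598 with a further fold threshold of 1 on the log2 scale, and protein-coding genes alone gave 2444 calls, 1255 higher and 1189 lower.

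The log2 ratio of both alpha tubulins to *nda3* was 0.22 in total RNA and -0.10 in poly(A)+ RNA with spliced lengths, and 0.39 and 0.070 without lengths. The difference in *act1* over *cdc12* ran from -0.14 to 0.49 when 1 library was left out. With replicate number as a block 9418 features differed and 9 members were lower. The labels do not say whether libraries of equal number share a culture. Deviations of equal number correlated at -0.015 across 11234 features, which cannot decide this with 2 libraries in each fraction.

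Only 2 libraries stood in each fraction, and poly(A)+ replicates differed more (chi-square per degree of freedom 114 against 8.60 in total RNA). Leaving out a library assumes that the lone one varies like the other fraction.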
